A study of Mus musculus with 2 samples.

Results

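Axon injury and regeneration genes are the transcripts that a peripheral sensory neuron switches on, or keeps at a high level, when its axon is cut and regrows. The 36 genes examined here were given by name rather than by a threshold on these data, out of 36990 gene names on the arrays. Each was represented by its brightest probe that holds no run of GA or GAA repeats. Dorsal root ganglion (DRG) neurons are the sensory neurons that carry touch, itch and pain from skin and muscle to the spinal cord. Total RNA labelled as that of such neurons was measured on 1 array from Dock8+/- mice and on 1 array from Dock8-/- mice, both of the strain C57BL/6. Both groups carried the AND transgene, which gives T cells a single T cell receptor, so neither group was free of it, and no Dock8+/+ group was analysed here. The labels note a low level of the itch cytokine IL-31 for the Dock8+/- sample and a high level for the Dock8-/- sample, and name no nerve lesion in either. DOCK8 is an activator of small GTPases that is best known from leukocytes. Age, the number of animals per sample and the cells in which Dock8 was disrupted are not given in the sources used here. Nor is it given how the neurons were separated from other cells. With 1 array per genotype, no difference below has a replicate check, and no test or error between genotypes can be given.

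In the injury programme, a damaged axon signals through the kinases DLK and JNK to the cell body, where the transcription factors JUN and ATF3 accumulate and act with SOX11, SMAD1 and KLF family members. Their targets include growth cone proteins, tubulins and adhesion molecules needed for outgrowth, and secreted factors such as CSF1 and the cytokines LIF and IL6 that act on microglia, macrophages and glia. Mature DRG neurons already hold large amounts of tubulin, stathmins and GAP43 without any lesion, whereas ATF3 and SPRR1A are scarce in uninjured ganglia.

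All values are processed fluorescence intensities, given as Dock8+/- first and Dock8-/- second. Differences are log2 values of Dock8-/- minus Dock8+/- after each array was set relative to its own 75th percentile, which lay at an intensity of 303.8 in Dock8+/- and 146 on the Dock8-/- array. A gene with the same raw intensity on both arrays therefore has a scaled difference above 0. Of 56601 probes, 56.9% and 50.7% were well above background by the scanner's flag. All 10 neuron markers were well above background on both arrays with a median difference of 0.14, from Scn9a (2.14-fold higher) and Syt1 (0.91) to Elavl3 (-0.19) and Nefl (-0.46), and summed intensities of 298521 and 139459. Fibroblast markers summed to 302312 and 52609, and myelinating Schwann cell markers to 190035 and 80504. The values below are therefore not those of neurons alone. The targeted gene gave no check of the labels: 1 of 5 Dock8 probes was well above background, at 20.5 on the Dock8+/- array against 6.88, not well above background, on the Dock8-/- array. Spots of the same probe had a log2 SD of 0.0435 and 0.0463 within the arrays, over 298 probes with 10 spots, which gives an SD of 0.0635 for a difference of single spots and leaves out all variation between animals, RNA preparations and labellings.

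Most of the injury and regeneration genes were a little higher on the Dock8-/- array, and the few at least 2-fold higher were mostly dim. Of the 36 genes, 28 were well above background on both arrays, 3 (Sprr1a, Lif and Nmu) were so in Dock8-/- only, and 5 (Ankrd1, Il6, Reg3b, Crh and Arg1) on neither. Of the 28, 23 (82.1%) lay above 0, against 51.6% of all 18592 measured genes, and the median difference was 0.59 against 0.02. At least 2-fold higher were 5 of 28 (17.9%), namely Fgf2, Sox11, Flrt3, Fst and Stmn4, against 8.73% of all measured genes. At least 2-fold lower was 1 of 28 (3.57%), Anxa1, against 7.06%. The share at least 2-fold apart in either direction was 15.8% over all measured genes. A further 11 genes lay between 0.5 and 1, and 8 lay within 0.3 of 0. All of these directions are relative to the bulk of the genes: when the arrays were scaled to the spike-in RNAs instead, the median of all measured genes moved to -1.85, that of the 28 genes to -1.29, and 1 of the 28 lay above 0.

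**Figure D1:**
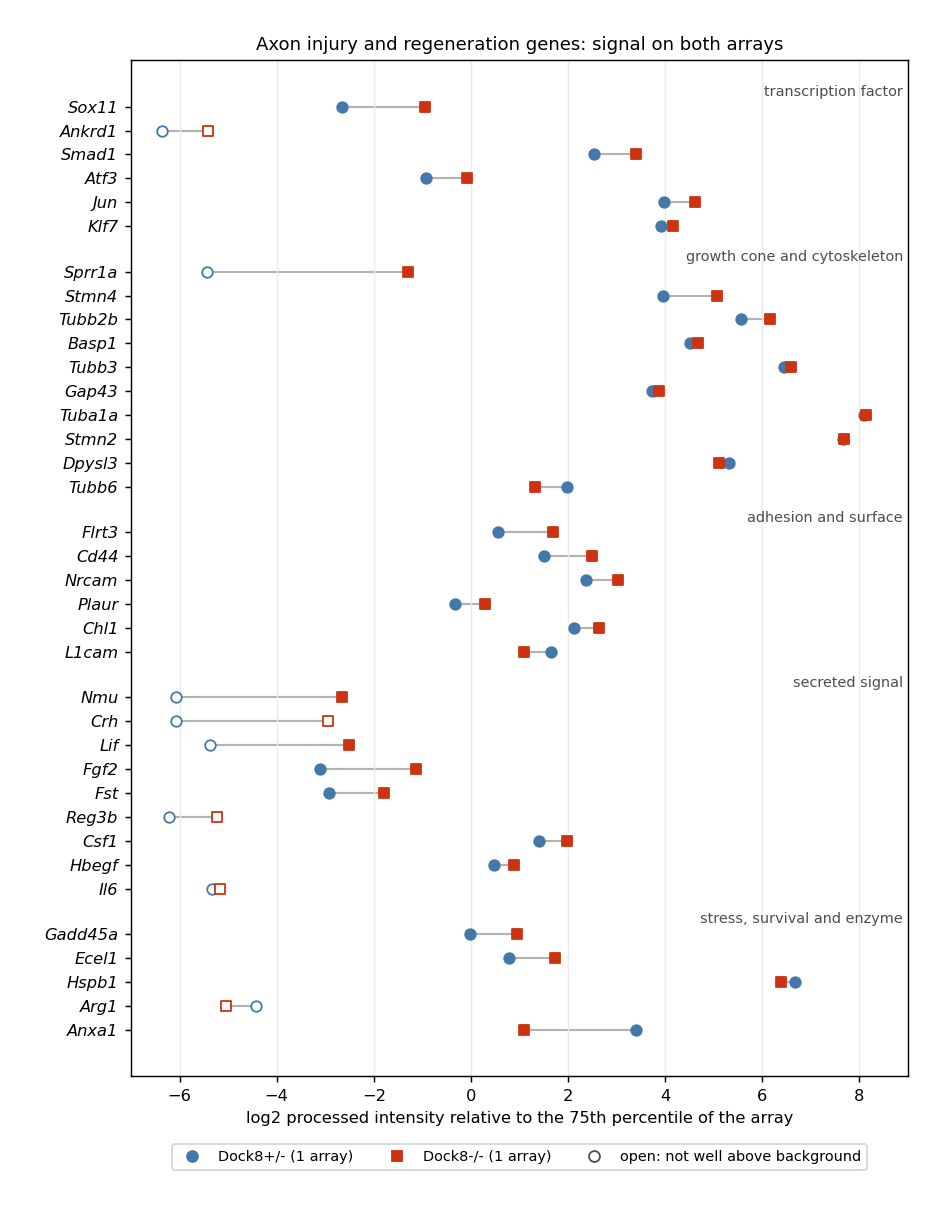
Signal of the 36 genes on both arrays, as log2 processed intensity relative to the 75th percentile of the array, grouped by role; circles are the Dock8+/- array, squares the Dock8-/- array, and open symbols are not well above background. The square lies to the right of the circle for 23 of the 28 genes measured on both arrays, and 5 genes have 2 open symbols.

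Differences varied with signal level across all measured genes. Among the dimmest quartile of measured genes the median difference was 0.33 and 17.8% were at least 2-fold higher, while in the brightest quartile these values were -0.04 and 4.15%. The 3 injury genes in the dimmest quartile (Sox11, Fgf2 and Fst) all reached 2-fold higher, and their median was 1.71. In the second quartile all 4 genes (Atf3, Plaur, Hbegf and Gadd45a) lay above 0 with a median of 0.73, against 48.5% of genes above 0 and a median of -0.02 over that quartile. In the third quartile 5 of 8 lay above 0 (median 0.55), against 47.1% of genes and a median of -0.04 over that quartile. In the brightest 11 of 13 lay above 0 (median 0.16), against 45.6% and -0.04. The 23444 probes that were well above background on neither array had a median scaled difference of 0.97. The part of signal level in their differences was not tested.

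**Figure D2:**
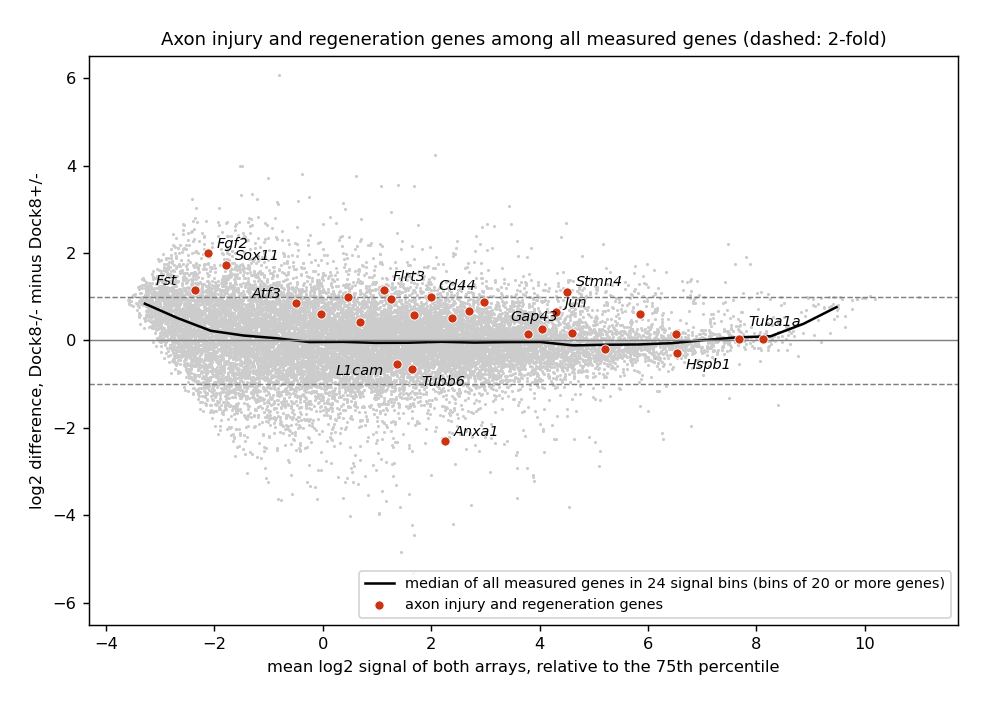
Difference between the arrays (log2, Dock8-/- minus Dock8+/-) against the mean log2 signal of both arrays for all 18592 measured genes in grey and the 28 injury and regeneration genes in red; the black line is the median of all genes in bins of signal. The line bends upward at the dim end, where Fgf2, Sox11 and Fst lie, and Anxa1 lies at -2.30.

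Among the transcription factors, the 5 measured genes all lay above 0, with a median of 0.85. Atf3, a stress-induced factor used as a marker of axotomised neurons, read 159.6 in Dock8+/- and 138 on the Dock8-/- array, a difference of 0.85. It was thus above the scanner's background on both arrays and higher, by less than 2-fold, on the Dock8-/- array (1.81-fold). Jun, the partner of ATF3 and the main target of JNK, read 4774 and 3588, a difference of 0.65. Smad1, which carries bone morphogenetic protein signals and promotes axon growth, read 1756 and 1540.4, a difference of 0.87. Neither Jun nor Smad1 reached 2-fold, and each had 1 probe that was well above background. Klf7, a Kruppel-like factor that favours axon growth, read 4580 and 2623, a difference of 0.26. Its other probes gave 0.66 and -0.97, so its direction depends on the probe. Ankrd1, a stress-responsive nuclear cofactor, stayed in the background of both arrays, at 3.68 and 3.43.

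Sox11, a factor of the SOX family that is abundant in developing neurons and returns after nerve injury, was the transcription factor with the largest difference. Its brightest probe read 48.4 and 76.1, a 3.28-fold difference (1.71 on the log2 scale) that exceeded those of 98.3% of all measured genes. That rank is over genes of every signal level, and in the dimmest quartile, where Sox11 lay, 17.8% were at least 2-fold higher. The probes of Sox11 are shown by their first 30 of 60 bases, because they read separate stretches of the locus.
Sox11 probe from base 7437 of its transcript: gcaggagtttttcacagaggaatacatttg
Sox11 probe from base 7983 of its transcript: aaccattctgtattgaaactcttgctataa
Probe named Sox11 from a cDNA clone: tggtcttcacaatgcattcgtcgaaaccgc
In the mouse build mm9 they lie at chr12:28020087-28020146, chr12:28019541-28019600 and chr12:28023292-28023351, the first and second on the minus strand and the clone's probe on the plus strand. The second probe read 27.2 and 77.7, a difference of 2.58, and the clone's probe 22.6 and 29.7, a difference of 1.46. The clone's probe lies on the strand opposite to the transcript's probes, so it may not read Sox11 mRNA, although the files give it that gene name. Both probes of the transcript had a higher raw intensity on the Dock8-/- array, although the array as a whole was dimmer, and they read between 27.2 and 77.7, where the lowest intensities flagged as well above background were 17.4 and 16.1. With a loess curve over signal the difference of the brightest probe was 1.49, and with normexp background correction 1.18.

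The growth cone and cytoskeleton genes were the group nearest to 0: the median of the 9 measured genes was 0.15. Gap43, the growth-associated protein of axon terminals, read 4002 and 2129, a difference of 0.15, which became -0.07 with normexp correction. Basp1, a membrane protein related to GAP43 in function, read 6940.2 and 3716, a difference of 0.16 (-0.07 with normexp). Stmn2, a stathmin of regrowing axons that binds tubulin, read 61321 and 30031, a difference of 0.03 (-0.22 with quantile normalisation). These 3 abundant growth genes were within 0.3 of 0. Stmn4, another neuronal stathmin, read 4684.7 and 4858.5, a 2.16-fold difference (1.11). It was the only gene of the brightest quartile among the 28 that was at least 2-fold higher, and it lay at 1.16 with loess and 0.88 with normexp.

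The tubulins of this group differed among themselves. Tubb2b, a beta tubulin of growing neurons, read 14314 and 10358, a difference of 0.59. Tubb3, the neuron-specific beta tubulin, read 26342 and 14013, a difference of 0.15 that became -0.08 with normexp. Tuba1a, an alpha tubulin of growing axons, read 83654 and 41081, a difference of 0.04 (-0.18 with quantile normalisation), and its second probe gave 0.18. Tubb6, a beta tubulin found in many cell types, was lower on the Dock8-/- array at 1194 and 362, a difference of -0.66. Dpysl3, a collapsin response mediator protein of growth cones, read 12029 and 5057, a difference of -0.19, with its other probes at -0.63 and -0.45.

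Sprr1a encodes a small proline-rich protein of the epidermal cornified envelope that injured sensory neurons also make. Its only probe read 6.97, not well above background, in Dock8+/- and 59.1 on the Dock8-/- array. Against the lowest intensity flagged as well above background on the Dock8+/- array, it was at least 7.11-fold higher on the Dock8-/- array. This bound, 2.83 on the log2 scale, was 2.42 with loess, 1.39 with normexp background correction and 0.95 relative to the spike-ins. Such bounds are selected to be large, since 504 of the 509 genes seen in Dock8-/- only (99.0%) had a bound of at least 2-fold. Of 16 keratinocyte and epithelium markers, set beside Sprr1a because it is also a gene of the epidermis, 7 were measured on both arrays. Krt14 (1.88) and Krt6a (1.16) had the highest differences and Krt19 (-1.85) and Krt10 (-0.92) the lowest. The list median was 0.21. Dsg1b, at 3.96 and 161, was well above background in Dock8-/- only, at least 19.4-fold higher, whereas Krt5 (28.9 and 3.94), Krt18 (22.8 and 10.1) and Dsp (39.9 and 4.07) were so in Dock8+/- only. Krt1, Krt8, Dsg1a, Epcam and Ivl were well above background on neither array. Summed intensity over the 16 markers was 2385 in Dock8+/- and 1108 on the Dock8-/- array. Their part in the Sprr1a value was not tested.

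Of the 6 adhesion and surface genes all were measured, with a median of 0.64. Flrt3, a leucine-rich transmembrane protein that rises in injured DRG neurons and promotes neurite outgrowth, read 444.5 and 471, a 2.21-fold difference (1.15; 0.90 with normexp). Cd44, the hyaluronan receptor, read 856 and 817, a difference of 0.99, and its other measured probe read 294 and 453, a difference of 1.69. Nrcam, an adhesion molecule of the L1 family at nodes and growth cones, read 1562 and 1185, a difference of 0.66, with its other measured probes at 0.02 and 0.92. Chl1, the close homologue of L1, read 1315 and 906, a difference of 0.52, and its other probes gave 0.74 and 1.17. For these 4 genes every measured probe lay above 0. L1cam itself, the founding member of that family, went the other way on its brightest probe, at 948 and 313 (-0.54), while its other probes gave -0.20 and 0.62. Plaur, the urokinase receptor that neurons and leukocytes use to focus proteolysis at the cell surface, read 242 and 177, a difference of 0.61.

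The secreted signals were the least often measured group: 4 of 9 were well above background on both arrays, with a median of 0.86. Csf1, the cytokine that injured sensory neurons use to activate microglia, read 804 and 574 on its brightest probe, a difference of 0.58. Probes on another Csf1 transcript gave the opposite direction, and the probes are shown because they read different transcripts of the gene.
Csf1 probe of transcript NM_007778: tgtggggcttacttagccttctggttacag
Csf1 probe of transcript NM_001113530: cgtgcagattaagatcacattagttttaac
They lie on the minus strand of mm9 at chr3:107544333-107544392 and chr3:107548550-107548609. The latter read 118 and 21.7, a difference of -1.39, and an overlapping probe of the same transcript read 129 and 16.7, not well above background on the Dock8-/- array. No single direction can be given for Csf1, and the mean of its measured probes was -0.40.

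Fgf2, a growth factor that sensory neurons and glia raise after nerve injury, had the largest measured difference upward among the 28 genes and also disagreed between its probes. The probe with the higher mean signal read 35.1 and 66.9, a 3.98-fold difference (1.99) above those of 99.0% of all measured genes. Fgf2 also lay in the dimmest quartile, where 17.8% of genes were at least 2-fold higher. The Fgf2 probes are shown because those of a single transcript went in opposite directions.
Fgf2 probe from base 359 of NM_008006: agcgacccacacgtcaaactacaactccaa
Fgf2 probe from base 481 of NM_008006: tgttacagaagagtgtttcttctttgaacg
The former spans an intron of the plus strand of chromosome 3 in mm9, from 37247934 to 37295153, and the latter lies at chr3:37303539-37303598. The latter read 42.5 in Dock8+/- and 14.3, not well above background, on the Dock8-/- array. The remaining probe, of a cDNA clone that maps between them, read 26.8 and 8.64 and was likewise well above background in Dock8+/- only. The 3.98-fold value therefore rests on 1 of 3 probes.

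Of the other secreted signals, Fst, the activin-binding protein follistatin, read 39.8 and 42.2, a 2.21-fold difference (1.14) that was under 2-fold with loess (0.86) and normexp (0.82). Hbegf, a heparin-binding ligand of the EGF receptor, read 420 and 269.8, a difference of 0.42. Lif, the injury cytokine that signals through gp130 to STAT3, read 7.35, not well above background, in Dock8+/- and 25.6 on the Dock8-/- array, at least 3.08-fold higher. Nmu, the neuropeptide neuromedin U, read 4.50 and 23.1 in the same manner, at least 2.78-fold higher. Both Dock8-/- readings lay close to the lowest intensity flagged as well above background there (16.1). On the log2 scale the bound of Lif was 1.62, and 1.21 with loess and 1.06 with normexp. That of Nmu was 1.47, and 1.05 with loess and 0.91, under 2-fold, with normexp. Relative to the spike-ins no bound above 0 could be given for either. Il6, the related cytokine, was not well above background at 7.59 and 4.07, nor were Reg3b, a secreted lectin of injured neurons, at 4.06 and 3.88, and Crh, corticotropin-releasing hormone, at 4.52 and 18.9.

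Sprr1a, Lif and Nmu were the genes well above background in Dock8-/- only, so the sequence before their start was read, as a description, for binding motifs of factors in the programme. Promoters came from RefSeq on the build GRCm38.p6, which is not the build of the probes, and held 26 of the 36 genes. The AP-1 motif TGANTCA, bound by JUN dimers, was searched on both strands of the 250 bases before the start. It occurred in 5 of the 26 genes, namely Sprr1a, Lif, Nmu, Il6 and Plaur, and in 7.82% of all 27025 genes in the table. The promoters of the 3 genes are printed with AP-1 matches in capitals.
Sprr1a, chr3:92485882-92486131, minus strand: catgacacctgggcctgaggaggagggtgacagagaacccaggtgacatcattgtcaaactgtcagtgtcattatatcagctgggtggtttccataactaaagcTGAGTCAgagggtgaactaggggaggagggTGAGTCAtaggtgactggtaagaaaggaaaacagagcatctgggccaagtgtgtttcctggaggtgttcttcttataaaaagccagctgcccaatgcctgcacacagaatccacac
Lif, chr11:4257318-4257567, plus strand: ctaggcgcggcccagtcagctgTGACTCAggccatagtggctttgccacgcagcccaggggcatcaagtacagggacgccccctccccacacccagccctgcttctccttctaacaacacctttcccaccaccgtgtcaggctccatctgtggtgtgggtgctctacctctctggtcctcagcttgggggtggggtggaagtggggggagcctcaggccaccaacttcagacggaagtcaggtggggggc
Nmu, chr5:76363778-76364027, minus strand: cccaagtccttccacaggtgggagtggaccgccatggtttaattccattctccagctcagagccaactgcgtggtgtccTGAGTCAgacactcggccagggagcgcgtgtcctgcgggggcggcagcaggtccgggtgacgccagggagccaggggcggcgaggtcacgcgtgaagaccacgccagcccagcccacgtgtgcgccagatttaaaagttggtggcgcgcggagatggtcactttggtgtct
Sprr1a held 2 matches, 146 and 116 bases before the start, Lif 1 at 228 and Nmu 1 at 171. Plaur, measured on both arrays, held a match 69 bases before its start, and Il6, well above background on neither array, held 1 at 249. The 3 printed genes were picked by their detection in Dock8-/- only, and a link between matches and signal was not tested. The ATF and CREB site TGACGTCA occurred in 0 of the 26 genes and in 1.77% of all genes. The STAT motif TTCNNNGAA occurred in 1 (Reg3b; 8.13% of all), the GC box GGGCGG in 16 (35.4%) and the TATA box TATAAA in 3 (Anxa1, Reg3b and Sprr1a; 14.3%). No binding was measured here, and a match is not a site.

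**Figure D3:**
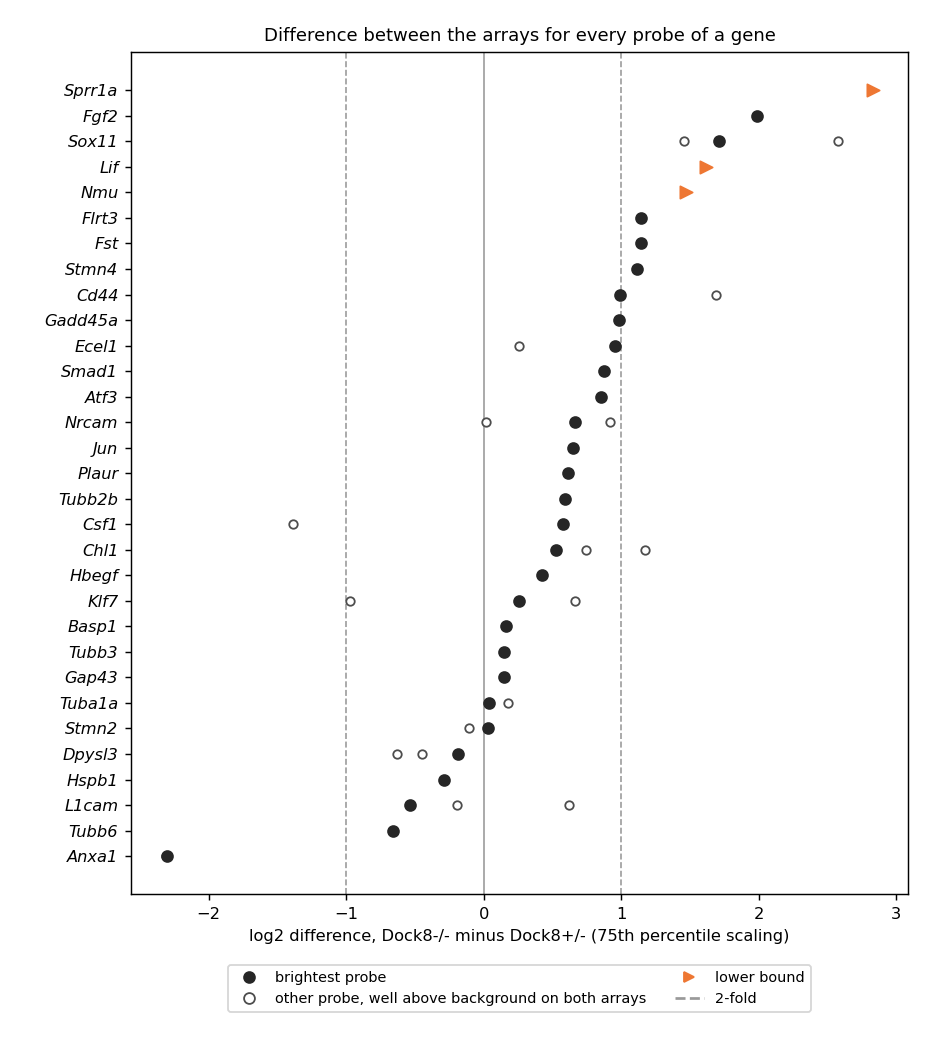
Difference between the arrays (log2, Dock8-/- minus Dock8+/-) for every probe well above background on both arrays; filled circles are the brightest probe of a gene, open circles its other probes, and triangles the lower bounds of Sprr1a, Lif and Nmu. Csf1, Klf7, L1cam and Stmn2 have probes on both sides of 0, and the 2 Anxa1 probes coincide near -2.30.

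Among stress, survival and enzyme genes, Gadd45a, a growth arrest and DNA damage gene that axotomised neurons raise, read 298 and 283, a difference of 0.99. Ecel1, a membrane endopeptidase of injured neurons, read 524 and 487, a difference of 0.95, and its other probe gave 0.25. Both stood just under 2-fold, together with Cd44. Hspb1, the small heat shock protein HSP27 that supports survival of axotomised neurons, read 31138 and 12201, a difference of -0.29. Arg1, an arginase that makes polyamines and is also a macrophage gene, was not well above background at 14.1 and 4.43.

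Anxa1, annexin A1, a phospholipid-binding protein found in small sensory neurons, leukocytes and fibroblasts, was the gene that was lower by at least 2-fold. Over 10 spots its brightest probe read 3219.7 ± 155 in Dock8+/- and 313 ± 14.4 on the Dock8-/- array (SD between spots of 1 array). Before scaling, the lowest of the Dock8+/- spots read 2868 and the highest of the Dock8-/- spots 334. These spots are copies of 1 probe and do not measure variation between animals. After scaling, the 4.94-fold lower value (-2.30) was below those of all but 0.63% of measured genes. The Anxa1 probes are shown because they read separate parts of the transcript with the same outcome.
Anxa1 probe from base 1321 of NM_010730: gccccataagcaagtcactttggtaccatt
Anxa1 probe from base 1011 of NM_010730: tattttaccagaagaagtatggaatctctc
They lie on the minus strand of mm9 at chr19:20447938-20447997 and, spanning an intron, chr19:20448248-20449761. The second, with 1 spot, read 3169 and 306, a difference of -2.31. The other 2 of its 4 probes, on cDNA clones, read 42.7 and 10.5, well above background in Dock8+/- only, and 8.26 and 4.18, on neither. The direction of Anxa1 was the same under each of the scalings tried, from -2.26 to -2.31, and -4.18 relative to the spike-ins.

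Markers of several other cell types were lower on the Dock8-/- array, as Anxa1 was. All 10 macrophage markers lay below 0 with a median of -1.54, 9 of them at least 2-fold lower, from Csf1r (-0.65) and C1qc (-1.20) to Adgre1 (-1.92) and Lyz2 (-2.87), and their summed intensity was 45023 and 5677. All 8 fibroblast markers lay below 0 with a median of -1.87, 6 at least 2-fold lower, from Pdgfra (-0.10) and Thy1 (-0.33) to Col1a1 (-2.92) and Col3a1 (-3.21), at 302312 and 52609 summed. Skeletal muscle markers had a median of -3.94 over 3 measured genes of 8, at 9243 and 263.5 summed, and Acta1, Myh1, Mylpf and Ckm were at least 9.17-fold, 8.28-fold, 6.81-fold and 2.04-fold lower by bound. None of these 3 lists had a marker that was well above background on neither array. In bulk RNA fewer cells of a type and less RNA per cell cannot be told apart. The median of the 8 spinal cord tissue markers had the opposite sign, at 0.88, but the genes did not share a direction. Of them 6 lay above 0, 4 were at least 2-fold higher and 1 was at least 2-fold lower. They ranged from Gfap (3.07) and Slc1a2 (1.92) to Slc32a1 (-0.44) and Slc6a5 (-1.20), at 7497 and 8584 summed. Satellite glia markers had a median of 0.69 over 8 of 8 (169991 and 112204 summed), repair Schwann cell markers 0.40 over 5 of 8 (13162 and 7009), myelinating Schwann cell markers -0.14 over 7 of 7 (190035 and 80504), neutrophil markers 0.22 over 7 of 8 (10591 and 6177) and endothelium markers -0.30 over 5 of 6 (3523 and 1477). Of these lists Gdnf and Runx2 (repair Schwann cell) and Cxcr2 (neutrophil) were well above background on neither array. The part of any of these cells in the injury gene values was not tested.

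Other genes of the pathway, from lists of known function, were set beside them. The upstream pathway of the kinases DLK (Map3k12) and JNK and of axon degeneration was measured in full. Of its 14 genes 0 were at least 2-fold apart, against 15.8% of all measured genes, and the median was 0.07. That share is over all signal levels, whereas 12 of the 14 lay at or above the median signal. Of the 9296 genes at or above it, 418 were at least 2-fold higher and 475 lower. The highest of the 14 were Nmnat2 (0.41), an enzyme that keeps axons alive, and Map2k4 (0.33), a JNK kinase. The lowest were Fbxo45 (-0.64), part of a ligase that removes DLK, and Mapk8 (-0.57), which is JNK1. Of the other transcription and growth regulators 19 of 20 were measured, with a median of 0.05. At least 2-fold higher were 3 (8.73% over all measured genes) and lower was 1 (7.06% over all). Lin28b (1.23), an RNA-binding protein that favours regrowth, Hif1a (1.09), a hypoxia factor, and Klf9 (1.06), a factor that holds growth back, were the 3, and Klf4 (-1.01), another inhibitor of growth, was the 1. The next lowest was Ddit3 (-0.57), a factor of endoplasmic reticulum stress. With normexp 0 of the 19 were at least 2-fold higher, and Klf4 was under 2-fold lower with quantile normalisation, loess and the authors' value table. With the mean of all measured probes the median of this list was 0.44, with 4 higher and 2 lower.

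Cytoskeletal relatives such as further tubulins, stathmins and collapsin response mediator proteins had a median of 0.14 over 19 of 20 genes. The highest were Dpysl2 and Marcksl1 (0.60 each), and the lowest were Tuba1c (-1.74), at 8624 and 1236, and Tuba8 (-0.76). No relative was at least 2-fold higher (8.73% over all measured genes) and 1 was at least 2-fold lower (7.06% over all). Of the 19, 16 lay at or above the median signal, where 418 of 9296 genes were at least 2-fold higher and 475 lower. The median of the relatives was -0.14 with quantile normalisation and -0.09 with normexp.

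Other genes known to rise in DRG neurons after axotomy had a median of 0.63 over 15 of 18 genes, with 12 above 0 (51.6% over all measured genes), 4 at least 2-fold higher (8.73% over all) and 1 lower (7.06% over all). Bdnf, a neurotrophin, read 203 and 272 (1.49), and Nts, the neuropeptide neurotensin, read 552 and 689 (1.38). Tnfrsf12a, the receptor of TWEAK, read 648 and 760.4 (1.29), and Cacna2d1, a calcium channel subunit that rises in neuropathic pain, read 1349 and 1571 (1.28). Npy, the neuropeptide that is switched on in large neurons after nerve lesion, read 5.58, not well above background, and 60.5, at least 7.28-fold higher. Not all went that way. Timp1, an inhibitor of matrix proteases, was at -0.39, and Gpr151 and Vip were well above background on neither array. The galanin gene Gal, a peptide among the strongest responders to axotomy, read 1415 and 823, a difference of 0.28, and is named after its value was seen.

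Genes known to fall after axotomy gave a median of -0.08 over 12 of 12. At least 2-fold higher were 0 (8.73% over all measured genes) and lower was 1 (7.06% over all). Of the 12, 10 lay at or above the median signal, where 418 of 9296 genes were at least 2-fold higher and 475 lower. The highest of the 12 were Tac1 (0.37), the substance P precursor, and Scn10a (0.36), a nociceptor sodium channel. Among the lowest was Trpv1, the heat and capsaicin channel, at 289 and 85.1 (-0.70). Relative to the bulk of genes, the 28 injury genes and the other genes that rise had medians of 0.59 and 0.63, and the genes that fall had a median near 0. Satellite glia and spinal cord tissue markers had medians of 0.69 and 0.88. A median of this size was thus not particular to the injury lists.

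**Figure D4:**
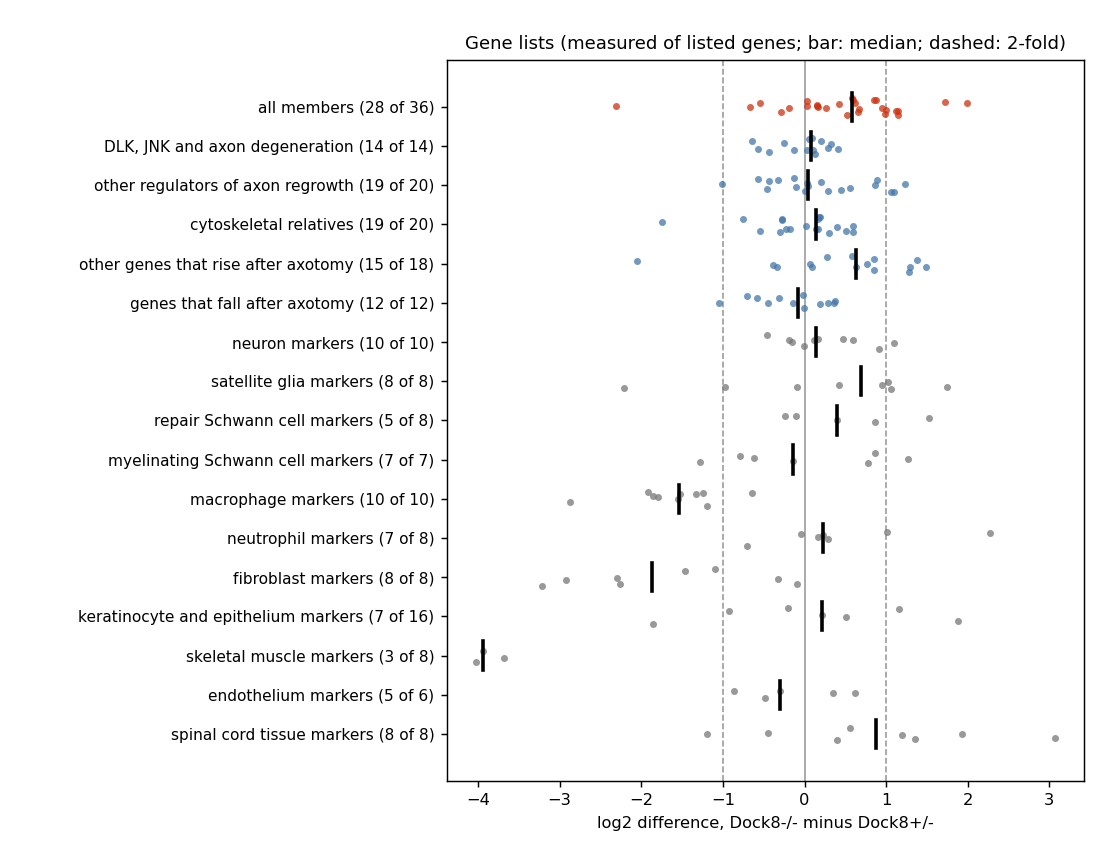
Difference between the arrays (log2, Dock8-/- minus Dock8+/-) for the measured genes of each list, one point per gene, with the list median as a bar and the number measured of those listed in brackets. Medians to the right of 0 include those of the injury genes (0.59), the other genes that rise after axotomy (0.63), satellite glia markers (0.69) and spinal cord tissue markers (0.88). The medians of macrophage, fibroblast and skeletal muscle markers lie to the left.

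Agreement between probes limits what can be said of a single gene. Of the 36 genes, 18 had 1 probe, and 12 had several that were well above background on both arrays. In 4 of these 12 (Csf1, Klf7, L1cam and Stmn2) the probes lay on both sides of 0, and the median range between probes of a gene was 0.70. Over all 6184 genes with several such probes the range was 0.65, and 40.0% had probes on both sides of 0. The chosen probe of each of the 36 genes shared no run of 25 bases with a probe of another gene name.

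The count of genes at least 2-fold higher held under some ways of treating the signal and not under others. Fgf2, Sox11, Flrt3 and Stmn4 stayed at least 2-fold higher with quantile normalisation, loess and the authors' quantile-normalised values. Fst did not, and Cd44 was added under each of the 3. Gadd45a was added with quantile normalisation and in the authors' values, but not with loess. The Fgf2 value rests on the same 1 of 3 probes throughout, and its other probes were well above background in Dock8+/- only. With normexp background correction 2 genes, Fgf2 and Sox11, remained and the median was 0.38. Restricted to an intensity of at least 100 on both arrays, 25 genes remained with a median of 0.52, 20 of them above 0, and the 2 at least 2-fold higher were Flrt3 and Stmn4.

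**Figure D5:**
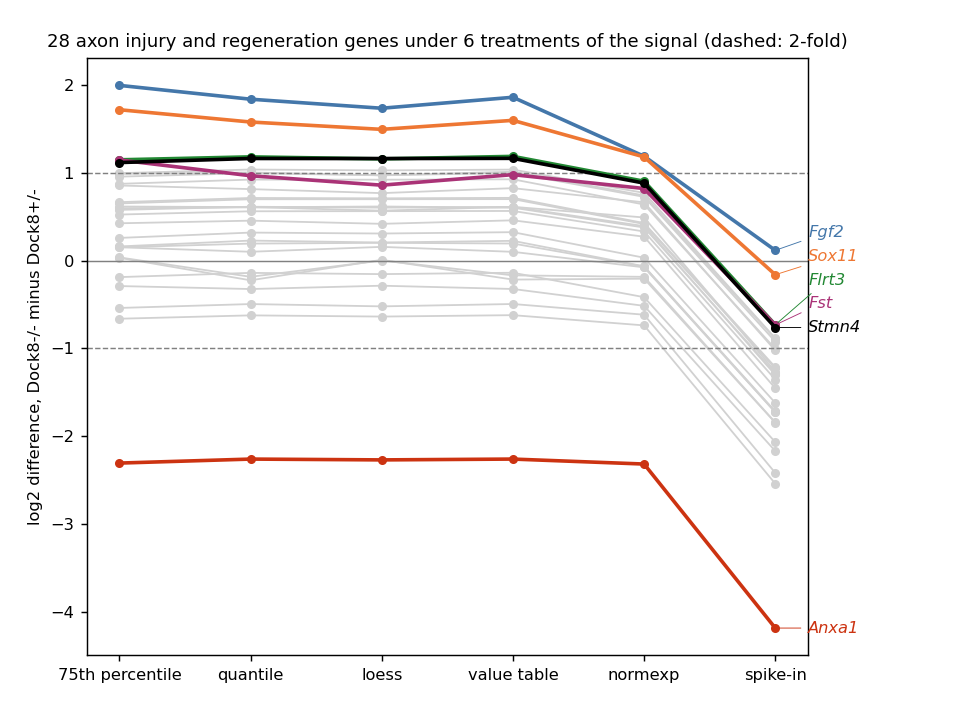
Difference between the arrays (log2, Dock8-/- minus Dock8+/-) for the 28 measured genes under 6 treatments of the signal, 1 line per gene, with the genes at least 2-fold apart in colour. Fgf2, Sox11, Flrt3 and Stmn4 stay above the 2-fold line through the first 4 treatments, Sox11 is at 1.18 with normexp, and relative to the spike-ins all but Fgf2 (0.12) lie below 0.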

How the data were processed

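Total RNA was isolated with Isogen, amplified and labelled with Cy3, per the labels' protocols, and read on 2 one-colour Agilent arrays of the same slide, per the file headers. The deposited scanner files give the linear intensity of each spot; the authors made them with Agilent's Feature Extraction, version 10.7.1.1 per the file headers and 9.5.1.1 per the submitters' processing notes. Probe positions are on mm9, per the file headers. The deposited value table also holds linear intensity values: 98.9% of the sorted values were equal in both columns (tolerance 0), each column had a median of 27.9, and log2 values had a correlation of 0.99969 and 0.99929 with the matching scanner file, so scale and direction are known. No column was left unused (0).

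A probe's value is the mean log2 of the processed signals of its spots, non-uniform ones (3 and 1) left out, with each array's 75th percentile over non-control probes subtracted. No spot was saturated (0 on each array). Each gene name took its brightest probe without 4 or more GA or GAA units (192 probes hold such a run, 0 of the 66 probes of the 36 genes). Measured genes are those whose chosen probe was well above background by the scanner's flag on each array. A bound divides the bright value by the dim one, or by the lowest signal well above background on the dim array where that is higher. A difference of 2-fold is a description of size, since 1 array per genotype allows no test. The number of arrays limits the precision. The scripts were tested on simulated data.

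All 36 genes are named, and of further lists the 2 highest, the 2 lowest and genes with a bound of at least 2-fold, except lists given by their median alone and results that are not reported here. Genes and lists were chosen with earlier results of these data known. Alternatives changed scaling, background correction, probe choice, threshold, detection filter and naming. Promoters were read from RefSeq (GRCm38.p6). Tools were R 4.3.3, limma 3.58.1, Python 3.11.15, numpy 2.4.6, pandas 2.3.3, statsmodels 0.14.6 and matplotlib 3.10.9.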

Additional observations from a re-analysis of the deposited data

How the results depend on the processing

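The 5 genes at least 2-fold higher, the 1 lower and the median of 0.59 were recomputed with each choice changed in turn. Scaled to the spike-ins, 0 of 28 genes were at least 2-fold higher and 20 lower (median -1.29), against 24 and 16435 of 18592 genes. Sox11 (-0.16), Stmn4 (-0.76), Flrt3 (-0.73) and Fst (-0.73) turned direction with the shift of all genes. With normexp 2 of 28 were higher and 1 lower (median 0.38), against 636 and 866 of 18581 genes. A 1.5-fold threshold gave 14 higher and 2 lower of 28, against 3828 and 3154 of 18592 genes. A 3-fold threshold gave 2 higher and 1 lower of 28, against 421 and 425 of 18592 genes. No filter on dim probes gave 9 higher and 1 lower of 36, against 5360 and 2794 of 36990 genes. Asking for 1 array above background gave 8 higher and 1 lower of 31, against 2139 and 2608 of 21681 genes. Keeping the genes at or above the median signal gave 2 higher and 1 lower of 21 (median 0.26), against 418 and 475 of 9296 genes. With the weaker detection flag 7 of 30 genes were higher and 1 lower, against 3330 and 2074 of 24241 genes. An intensity of at least 100 on both arrays was an alternative chosen after seeing the data. It gave 2 higher and 1 lower of 25, against 749 and 597 of 12518 genes. The filters test other genes by construction, and for the other changes the cause was not tested. The split of all genes, 1624 higher and 1313 lower in the report, was 1376 and 1389 with quantile normalisation, 1224 and 1535 with loess and 1391 and 1407 in the authors' value table. Anxa1 was lower under each of these. Dim probes are the limit: Sox11, Fgf2, Fst, Lif and Nmu read close to background. No paired analysis was possible because each genotype held 1 array, and no replicate could be left out for the same reason.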
